A study of Xenopus tropicalis with 44 samples.

Results

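The RNA of whole 16-cell Xenopus tropicalis embryos, a clawed frog, was compared between embryos injected with a morpholino against E2F1 (E2F1 MO) and wild type (WT), for which the labels give no treatment. The comparison took the 4 libraries of stage 5, 2 of E2F1 MO and 2 of WT, out of 44 libraries in the study, chosen by their stage and treatment labels. Both groups are whole embryos, and the labels name no strain, no further allele and no other agent. A morpholino is a synthetic antisense oligomer that blocks the translation or the splicing of its target RNA. The sources used here do not give its dose or the time of injection. None of the groups analysed here is labelled as given a control morpholino, so the action on E2F1 and other effects of injection and oligomer cannot be told apart in E2F1 MO against WT. Whether the paired libraries of a group stem from different clutches is not in the labels, and p-values therefore cover the spread between the libraries at hand, technical or not. The labels also do not say whether E2F1 MO and WT embryos came from the same clutch. A difference in maternal RNA between clutches therefore cannot be told apart from the treatment. Other libraries used below are E2F1 MO and WT embryos of stages 3 (4-cell), 4 (8-cell), 6, 7 and 8, embryos given the morpholino together with E2F1 mRNA (E2F1 Rescue) at stages 6 to 8, and embryos given an OTX1 morpholino alone (OTX1 MO) or with the E2F1 morpholino (double MO) at stages 7 and 8, with 2 libraries each.

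E2f1 is a transcription factor that binds DNA as a dimer with a DP protein and is held in check by pocket proteins of the retinoblastoma family. Its textbook targets serve DNA replication and entry into S phase. A frog embryo cleaves at first with RNA and protein laid down in the egg, and most of its genes are transcribed only from the midblastula stage on, so the RNA of a 16-cell embryo is almost all maternal. Stored maternal RNAs are regulated in part through the length of their poly(A) tails.

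The 4 libraries held 19541550 and 24353079 counts in E2F1 MO and 17824125 and 20548839 counts in WT, and 14576 and 14913 genes against 14530 and 14737 genes had at least 1 count. A floor of 3 counts equals 0.133 to 0.181 CPM (counts scaled to the normalised library size), a limit that covers counting error only. RNA of e2f1 stood at 508.6 and 498.8 CPM in E2F1 MO and at 519.6 and 518.4 CPM in WT (edgeR adjusted p = 0.994), and otx1 at 72.2 and 77.7 CPM against 79.9 and 85.9 CPM (adjusted p = 0.613). The level of the targeted RNA is no measure of a block of translation. Marker genes of adult blood, liver, ovarian follicle and sperm, of which 8, 5, 7 and 7 were tested, gave no call, 1 at an unadjusted p under 0.05 (a sperm marker) and none by DESeq2. Their summed levels ran from 14.1 to 16.1 CPM for blood markers in E2F1 MO and from 14.04 to 15.5 CPM in WT, from 1.90 to 2.45 CPM for liver markers in E2F1 MO and from 1.02 to 1.62 CPM in WT, from 2.07 to 2.09 CPM for follicle markers in E2F1 MO and from 2.03 to 2.05 CPM in WT, and from 60.1 to 61.2 CPM for sperm markers in E2F1 MO and from 59.2 to 59.3 CPM in WT. In each library 13 to 15 of the 20 blood markers in the table, 11 to 13 of the 17 liver markers, 12 to 14 of the 18 follicle markers and 3 to 4 of the 7 sperm markers were at 0 counts.

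Small changes in both directions made up the difference at the 16-cell stage. Of 16064 genes tested, 521 were called at an edgeR adjusted p under 0.05 (3.24%), of which 268 were higher in E2F1 MO (1.67%) and 253 lower (1.57%). The higher genes changed by less than 1.5-fold in 202 cases, by 1.5- to 2-fold in 49 and by 2-fold or more in 17, and the lower genes in 161, 66 and 26 cases. The median log2 change was 0.39 among the higher and -0.48 among the lower genes. In all 521 the libraries of the groups did not overlap, while among all tested genes 20.5% had both E2F1 MO libraries above both WT libraries and 20.3% had them below. Leaving out 1 of the 4 gave 257 to 291 calls, and 161 of the 521 (97 higher and 64 lower, 27 of the 43 changed 2-fold or more, which are 0.268% of all genes) stayed called whichever library was left out.

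**Figure D1:**
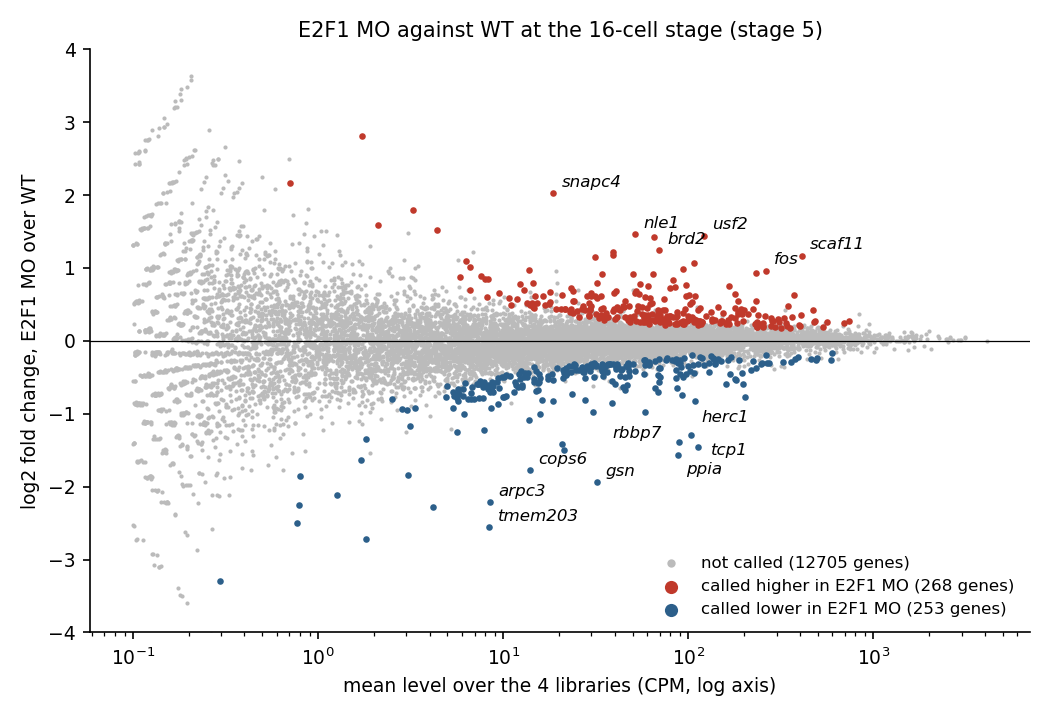
Log2 fold change of E2F1 MO over WT at stage 5 against the mean level over the 4 libraries in CPM on a log axis, with 1 point a gene. The 268 genes called higher and the 253 called lower lie along the whole range of abundant genes, and the falls of tmem203 and arpc3 and the rise of snapc4 stand furthest out among the genes with a name beside the point. Drawn are 13217 genes with a mean of at least 0.1 CPM and a log2 change within 4.

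The largest rise among genes of at least 5 CPM was that of snapc4. RNA of this gene, the largest subunit of the complex that activates small nuclear RNA genes, stood at 31.3 and 28.5 CPM in E2F1 MO and at 7.83 and 6.83 CPM in WT, a 4.08-fold difference. The transcription factor gene usf2 had 173.3 and 180.7 CPM in E2F1 MO and 60.4 and 69.7 CPM in WT (log2 change 1.44 ± 0.070 SE, adjusted p = 3.6e-19). The bromodomain gene brd2, a reader of acetylated histones, had 92.0 and 104.1 CPM against 40.8 and 42.3 CPM in WT (1.24 ± 0.075, adjusted p = 2.0e-16). In each of the 3 the E2F1 MO libraries lay more than 2-fold above both WT libraries. The most abundant of the leading genes was scaf11, which encodes a splicing-associated protein, with 573.4 and 564.6 CPM in E2F1 MO and 246.6 and 259.6 CPM in WT (1.17 ± 0.069, adjusted p = 8.7e-17). The ribosome assembly factor gene nle1 had 74.0 and 76.6 CPM in E2F1 MO and 27.2 and 27.3 CPM in WT. Replicates of these genes differed by far less than the groups did.

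The other genes among the 15 largest rises have varied roles. RNA of sptan1, the non-erythroid alpha spectrin, was at 95.2 and 95.7 CPM in E2F1 MO and at 34.3 and 36.9 CPM in WT (log2 change 1.42). The deubiquitinase gene zranb1 (1.22), the kinetochore gene zw10 (1.18), the clathrin adaptor gene ap2b1 (1.07), the DNA helicase gene brip1 (0.99), the vesicle tethering gene vps33a (0.97) and c1h12orf43 (1.15) rose by similar amounts. The immediate early gene fos was at 354.1 and 340.7 CPM in E2F1 MO and at 176.5 and 179.7 CPM in WT (0.96 ± 0.068, adjusted p = 2.9e-14). These calls, and those of the 5 genes above, held under every alternative run. The calls of tp63 (a p53 family gene, 1.79) and fbn3 (a fibrillin gene, 1.52) did not. Without E2F1 MO replicate 2 or WT replicate 1 the adjusted p of tp63 was 0.199 and 0.173, and without E2F1 MO replicate 2, WT replicate 1 or WT replicate 2 that of fbn3 was 0.79, 0.377 and 0.111. At stage 4, the 8-cell stage, tp63 was lower in E2F1 MO (-1.28, adjusted p = 0.039).

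The largest falls exceeded the largest rises in size, and among them were single members of larger complexes. RNA of tmem203, which encodes a small transmembrane protein, was at 2.85 and 2.09 CPM in E2F1 MO and at 15.7 and 13.1 CPM in WT, so WT was 5.87-fold above E2F1 MO. The arpc3 subunit gene of the actin-nucleating Arp2/3 complex had 2.68 and 3.25 CPM in E2F1 MO and 14.2 and 13.7 CPM in WT. The other 8 genes of that complex that were tested gave log2 changes of -0.18 to 0.12 and no call. RNA of gsn, the actin-severing protein gelsolin, was at 14.9 and 11.9 CPM in E2F1 MO and at 51.7 and 50.3 CPM in WT. The COP9 signalosome gene cops6 had 5.64 and 6.85 CPM in E2F1 MO and 19.8 and 23.2 CPM in WT (-1.78 ± 0.17, adjusted p = 9.0e-10). None of the other 8 tested genes of that complex was called, with the nearest to cops6 being cops4 at -0.57 (adjusted p = 0.274). Over all 72 tested genes of the Arp2/3 complex and actin filaments, 3 were higher and 3 lower (8.33%, against 3.24% of all genes), with a median log2 change of 0.00. Beside arpc3, gsn and sptan1 these were the bundling gene fscn1 (0.24), the capping gene capza2 (0.28) and the crosslinker gene actn4 (-0.33), whose adjusted p reached 0.156, 0.366 and 0.083 without WT replicate 1, E2F1 MO replicate 2 and WT replicate 1. Of 33 genes of the COP9 signalosome and cullin ligases, cops6 was lower and the substrate receptor gene skp2 was higher (0.31, adjusted p of 0.15 without E2F1 MO replicate 2), which is 6.06% of the list, with a median of 0.01.

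More abundant RNAs were also among the 15 largest falls. The cyclophilin gene ppia had 41.1 and 47.0 CPM in E2F1 MO and 132.9 and 129.4 CPM in WT (log2 change -1.57 ± 0.087, adjusted p = 3.0e-17). The chaperonin gene tcp1 had 62.1 and 59.2 CPM against 168.4 and 164.6 CPM in WT (-1.46 ± 0.082, adjusted p = 2.7e-17). The histone-binding gene rbbp7 had 45.2 and 53.2 CPM in E2F1 MO and 125.8 and 133.0 CPM in WT, while its close relative rbbp4 had a mean of 300 ± 20.8 CPM against 295 ± 8.49 CPM (SD, n = 2) and no call. The other falls among the 15 were castor1, a cytosolic arginine sensor (-1.49), the glycolytic gene eno1 (-1.42), the ubiquitin ligase gene herc1 (-1.29), the RNA polymerase III subunit gene polr3d (-1.25), the pentose phosphate gene rpe (-1.23), taf5l of histone acetyltransferase complexes (-1.01), the DNA damage recognition gene xpc (-1.003) and lsm12 (-0.98). Without E2F1 MO replicate 2 the adjusted p of herc1 was 0.0599, and the other calls held under every alternative run.

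**Figure D2:**
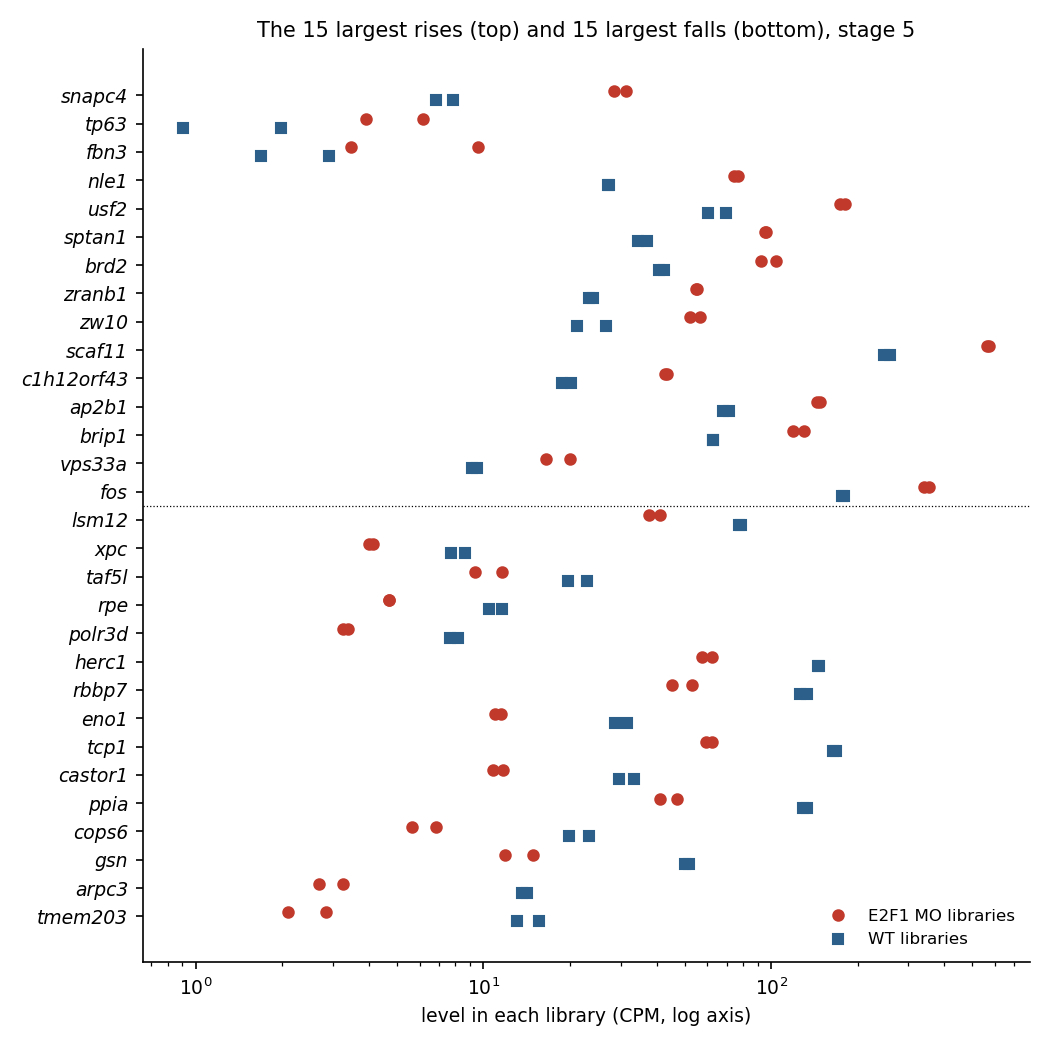
Level of each library at stage 5 in CPM on a log axis for the 15 largest rises and the 15 largest falls, with E2F1 MO libraries as circles and WT libraries as squares. The libraries of the groups do not overlap in any of these genes, and the widest gap between libraries of 1 group is in fbn3 (3.46 and 9.56 CPM in E2F1 MO) and tp63 (0.904 and 1.98 CPM in WT).

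Gene lists of pathways were drawn up with earlier results of these data known, and those of the snRNA-activating complex, the COP9 signalosome and the Arp2/3 complex hold genes already seen to change, so their counts are a description. Most lists hold mainly genes at 1 CPM or more, a level that 11116 of the 16064 tested genes reached in E2F1 MO or WT. Calls were rare among the least abundant genes, and the part of abundance in the shares of the lists was not tested. The genes of the E2F system itself gave 3 calls of under 1.5-fold. Of 20 tested members 1 was higher and 2 lower (15%, against 3.24% of all genes), with a median log2 change of 0.03. The MuvB subunit gene lin54 was at 313.1 and 306.0 CPM in E2F1 MO and at 249.7 and 248.6 CPM in WT (0.31, adjusted p = 2.4e-05). The cell cycle transcription factor gene mybl2 (-0.41, adjusted p = 0.015) and the repressor gene e2f8 (-0.31, adjusted p = 0.027) were lower. Both lost their calls without E2F1 MO replicate 1 (adjusted p of 0.299 and 0.329) or WT replicate 2 (0.333 and 0.561). The DP partner gene tfdp1 had means of 166 ± 0.0053 CPM in E2F1 MO and 166 ± 6.35 CPM in WT, and rb1 had 154 ± 5.85 CPM against 141 ± 4.71 CPM, with no call. The remaining E2F genes, e2f3, e2f4, e2f5, e2f6 and e2f7, gave log2 changes of -0.05 to 0.24 and no call.

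The DNA replication genes, which hold the textbook targets of E2f1, changed in both directions. Of 71 tested members 4 were higher and 2 lower (8.45%, against 3.24% of all genes), with a median log2 change of 0.00 and 36 positive and 35 negative values. The replication origin firing gene ticrr was at 306.3 and 306.0 CPM in E2F1 MO and at 164.0 and 156.8 CPM in WT (0.93 ± 0.070, adjusted p = 1.5e-13). RNA of rpa1, which encodes a subunit of a single-strand DNA binding protein, was at 42.4 and 46.7 CPM in E2F1 MO and at 22.7 and 24.6 CPM in WT (0.92). The helicase subunit gene mcm5 (0.34) and the origin recognition gene orc5 (0.44) were higher, and another helicase subunit gene, mcm3 (-0.51), and the polymerase subunit gene pole2 (-0.49) were lower. Without E2F1 MO replicate 1 or WT replicate 1 the adjusted p was 0.069 and 0.0846 for orc5 and 0.0525 and 0.0625 for pole2. In ticrr and mcm3 the replicates lay close together and the groups far apart, in opposite directions.

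Among 71 mitosis genes 4 were higher and 1 lower (7.04%, against 3.24% of all genes, median 0.02). RNA of ensa, whose product inhibits the phosphatase that opposes mitotic kinases, was at 32.5 and 36.3 CPM in E2F1 MO and at 21.7 and 23.3 CPM in WT (0.61, adjusted p = 3.9e-05), and its relative arpp19 was also higher (0.27). The anaphase-promoting complex gene anapc5 (0.47) and the activator of that complex fzr1 (0.24) were higher, and the spindle kinesin gene kif11 (-0.29) was lower. Calls of ensa and anapc5 held without any 1 library. Leaving out 1 library at a time gave adjusted p of up to 0.254 for kif11, 0.235 for arpp19 and 0.189 for fzr1, the highest without E2F1 MO replicate 1 for kif11 and arpp19 and without WT replicate 1 for fzr1.

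Genes of RNA polymerase III and its snRNA partners held 6 calls among 30 members (20%, against 3.24% of all genes), 2 higher and 4 lower, with a median of -0.04. Beside snapc4 the polymerase subunit gene polr3f was higher, at 104.7 and 106.8 CPM in E2F1 MO and at 82.4 and 80.4 CPM in WT. The subunit gene polr3d had 3.24 and 3.38 CPM in E2F1 MO and 8.13 and 7.66 CPM in WT, and the TFIIIC genes gtf3c6 (-0.48) and gtf3c2 (-0.42) and the partner gene snapc2 (-0.40) were lower too. Without WT replicate 2 the adjusted p was 0.0512 for gtf3c2 and 0.218 for snapc2, and for snapc2 it was 0.12 and 0.0562 without E2F1 MO replicates 1 and 2. RNA of snapc1, snapc3 and snapc5 gave log2 changes of -0.12, -0.05 and -0.03 and no call. Within the complex that holds snapc4 the subunit RNAs thus stood at unequal changes.

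Among ribosomal protein genes the called members all pointed downward. Of 77 tested, 0 were higher and 5 lower (6.49%), where 3.24% of all tested genes were called. The median log2 change was -0.13, and 64 of the 77 values were negative, against a median of 0.00 over all tested genes. RNA of rpl18 was at 12.8 and 13.9 CPM in E2F1 MO and at 23.7 CPM in both WT libraries (-0.82, adjusted p = 2.2e-06), and this call held without any 1 library. The calls of rpl15 (-0.42), rpl3 (-0.38), fau (-0.45) and rps15a (-0.43) did not, with adjusted p of up to 0.055, 0.124, 0.308 and 0.272 when WT replicate 1, WT replicate 2, E2F1 MO replicate 2 and WT replicate 1 were left out. Proteasome genes had 0 higher and 2 lower of 35 (5.71%, with psma4 at -0.45 and psmd2 at -0.32, median -0.10). The call of psma4 was lost in 3 of the 4 fits without 1 library, and that of psmd2 in 1. Without E2F1 MO replicate 1 the log2 change of psma4 was -0.33, and without WT replicate 1 that of psmd2 was -0.29. Respiratory chain genes gave no call by edgeR or DESeq2 among 70, with 11 at an unadjusted p under 0.05 and a median of -0.08. Among all tested genes 12.6% had an unadjusted p under 0.05. Near-identical copies can split reads of ribosomal protein genes, and the sources used here do not say how the counting treated them.

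Spliceosome genes had 1 higher and 5 lower of 67 (8.96%, against 3.24% of all genes, median 0.02). The clearest of them was crnkl1, at 147.7 and 147.0 CPM in E2F1 MO and at 213.0 and 216.2 CPM in WT (-0.54, adjusted p = 5.0e-09). The calls of prpf31 (0.28), xab2 (-0.78), snrnp35 (-0.41), sf3b6 (-0.35) and dhx16 (-0.32) were each lost without at least 1 library, with adjusted p of up to 0.0627, 0.108, 0.085, 0.181 and 0.302 without WT replicate 1, WT replicate 2, WT replicate 1, E2F1 MO replicate 2 and E2F1 MO replicate 1. Of 77 genes of maternal mRNA storage and decay, 2 were higher and 4 lower (7.79%, median 0.00). RNA of eif4enif1, which binds the cap-binding protein and represses stored mRNA, was at 75.1 and 76.4 CPM in E2F1 MO and at 103.7 and 104.9 CPM in WT (-0.46), and held without any 1 library. The oligouridylating enzyme gene tut7 (0.27) and the exosome gene exosc10 (0.21) were higher, and the exosome genes exosc2 (-0.56) and exosc4 (-0.41) and the mRNA packaging gene ybx1 (-0.24) lower. Leaving out 1 library gave an adjusted p of up to 0.146 for tut7 (WT replicate 1), 0.238 for exosc10 (E2F1 MO replicate 2 or WT replicate 1), 0.346 for exosc2 (E2F1 MO replicate 2), 0.465 for exosc4 (WT replicate 1) and 0.503 for ybx1 (E2F1 MO replicate 1).

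The list of maternal transcription factors of zygotic activation also holds chromatin genes such as brd2 and kat7. It gave 3 higher and 1 lower of 54 (7.41%, against 3.24% of all genes, median -0.01). Beside usf2 and brd2 these were the acetyltransferase gene kat7 (0.27) and, lower, sox3, a maternal SOX factor, at means of 560 ± 12.6 CPM in E2F1 MO and 631 ± 5.45 CPM in WT (SD, n = 2). Without E2F1 MO replicate 2 the adjusted p was 0.473 for kat7 and 0.271 for sox3. Oocyte and germ plasm genes had 1 lower of 43 (2.33%), velo1 (-0.32), whose adjusted p was 0.473 without that library. Of 37 genes of the p53 and cell death response, 2 were higher and 2 lower (10.8%, against 3.24% of all genes). These were tp63 and tigar (0.35, adjusted p of 0.329 without E2F1 MO replicate 2), xpc, and the stress kinase gene plk3 at 126.4 and 128.5 CPM in E2F1 MO and 193.8 and 190.5 CPM in WT. Heat-shock and immediate early genes had 2 higher (fos and hsph1, 0.45) and 1 lower (hspa8, -0.46) of 45, which is 6.67%. The 2 chaperone genes thus stood on opposite sides, and the call of hspa8 was lost without E2F1 MO replicate 1 (adjusted p = 0.0703). Innate immune genes gave no call among 21 by edgeR or DESeq2 and 1 unadjusted p under 0.05, which 12.6% of all tested genes had. Replication-dependent histone genes gave none among 13, with 0 unadjusted p under 0.05, and 4 of the 13 reached 1 CPM.

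Genes that were low in WT at stage 3 and higher at stage 7 were mostly under 1 CPM at the 16-cell stage. Their choice by a low level at stage 3 favours this. Whether their rise by stage 7 is new transcription was not tested. A set of 725 genes was taken from WT alone as those under 1 CPM at stage 3 and at least 4-fold higher at stage 7, and 111 of them reached 1 CPM in either group at stage 5. Among the 725 there were 0 higher and 4 lower calls (gpsm1, znf84-like, slc25a34-2 and LOC116406459, named after their values were seen), 5 by DESeq2 and 53 with an unadjusted p under 0.05. These are 0.552% of the 725 called and 7.31% with an unadjusted p under 0.05, against 3.24% and 12.6% of all tested genes. Most of the 725 were under 1 CPM in both groups, where calls are rare. Among the 111 that reached 1 CPM, 0 were called higher and 4 lower (3.6%), and 16.2% had an unadjusted p under 0.05. The largest level among the 4 was 4.12 CPM, of LOC116406459 in WT. Early mesendoderm and organizer genes gave no call among 44 by edgeR or DESeq2 and 3 unadjusted p under 0.05, and 3 of the 44 reached 1 CPM.

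Many of the changes of the 16-cell stage were also called at the stages around it, which share no library with it. Whether embryos of different stages came from the same clutch is not in the labels. Of the 268 higher genes, 169 were called higher at stage 3, which is 63.1% where 3.26% of all genes were. Stage 4 called 155 of them higher (57.8%, with 2.16% of all genes) and stage 6 called 133 (49.6%, with 1.18%). Of the 253 lower genes, 102 were called lower at stage 3 (40.3%, with 4.3% of all genes), 59 at stage 4 (23.3%, with 0.971%) and 81 at stage 6 (32.0%, with 0.772%). At stage 6 the log2 change was positive in 265 of the 268 and negative in 231 of the 253. All 3 other stages called 103 of the higher and 39 of the lower genes, and none of them called 67 of the higher and 120 of the lower genes. Among those called at no other stage, the median log2 changes at stages 3, 4 and 6 were 0.13, 0.13 and 0.18 for the higher genes and -0.12, -0.08 and -0.13 for the lower genes. Of the 161 genes that stayed called whichever library was left out, 85 of 97 higher and 51 of 64 lower genes were called in the same direction at stage 6.

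The genes snapc4, arpc3 and ticrr differed at each stage from 3 to 6, with adjusted p of at most 2.5e-14 for snapc4, 4.3e-09 for arpc3 and 1.8e-11 for ticrr over stages 3, 4 and 6. Not all leading genes did, as rpe gave -0.08 at stage 4 (adjusted p = 0.956) and -0.48 at stage 6 (adjusted p = 0.0759) and tp63 had the opposite sign at stage 4. RNA of snapc4 averaged 15.3 ± 2.71, 19.4 ± 2.47, 29.9 ± 1.997 and 32.9 ± 3.74 CPM in E2F1 MO at stages 3, 4, 5 and 6, and 2.88 ± 0.012, 4.49 ± 0.15, 7.33 ± 0.71 and 10.5 ± 0.38 CPM in WT (SD, n = 2). RNA of arpc3 averaged 3.49 ± 0.32, 3.71 ± 0.23, 2.96 ± 0.40 and 4.13 ± 0.98 CPM in E2F1 MO and 11.1 ± 1.302, 11.95 ± 0.61, 13.9 ± 0.36 and 16.2 ± 1.24 CPM in WT. The libraries of the groups lay apart at every one of these stages. RNA of ticrr averaged 427 ± 7.04, 378 ± 5.78, 306 ± 0.19 and 211 ± 10.6 CPM in E2F1 MO, and 247 ± 1.62, 192 ± 5.60, 160 ± 5.06 and 116 ± 7.73 CPM in WT, so it was higher in E2F1 MO at each stage on a falling course in both groups.

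The response at the 16-cell stage was set against the mean of the responses at stages 4 and 6, and against each of them. The effect at stage 5 minus the mean effect at stages 4 and 6 was tested in 16064 genes with 0 calls by edgeR (0.0%), 1288 unadjusted p under 0.05 and 24 calls by DESeq2. The edgeR test gave 132 calls without the filter on low counts and 213 in a fit on the 16 E2F1 MO and WT libraries of stages 3 to 6. The smallest adjusted p was 0.0596. The gene rpe came nearest among those named, with means of 6.13 ± 0.26, 4.70 ± 0.015 and 6.99 ± 0.19 CPM in E2F1 MO at stages 4, 5 and 6, and 6.48 ± 1.13, 11.03 ± 0.85 and 9.73 ± 0.11 CPM in WT (difference of effects -0.95, adjusted p = 0.0596). Against stage 4 alone 12 effects were higher and 6 lower at stage 5 (0.112%), among them rpe, lower by a difference of -1.15, and tp63, higher by 3.08 (adjusted p = 0.0126 each). In all 12 the log2 change was negative at stage 4 and positive at stage 5. Their WT means were higher at stage 4 than at stages 3, 5 and 6. For tp63 the WT means were 3.6, 6.7, 1.4 and 2.2 CPM at stages 3, 4, 5 and 6. Most of the 12 were not called at stage 5 itself, and some lay near the floor of 3 counts there. The gene gli1 had 9 and 11 counts in E2F1 MO and 1 and 2 counts in WT of stage 5. LOC105947503 had 10 and 8 counts against 1 and 1. The cause of the higher WT levels at stage 4 was not tested. Against stage 6 alone there were 0 calls by edgeR with 768 unadjusted p under 0.05 (smallest adjusted p of 0.196).

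In embryos given E2F1 mRNA with the morpholino, none of these genes was called back towards WT at stage 6. RNA of e2f1 was at 23889 ± 1092 CPM in E2F1 Rescue of stage 6, far above WT. It was at 449 ± 2.64 CPM in E2F1 MO and 471 ± 5.99 CPM in WT of that stage (SD, n = 2). E2F1 Rescue of that stage was compared with E2F1 MO, and 0 of the 268 higher genes were called in either direction, with 25 unadjusted p under 0.05, 17 of them positive. Of the 253 lower genes 0 were called higher in E2F1 Rescue than in E2F1 MO and 7 were called lower. The 253 held 69 unadjusted p under 0.05, 21 of them positive. Among all 16064 genes there were 21 calls (0.131%), with 0.0436% higher and 0.0872% lower. All genes held 1454 unadjusted p under 0.05, 708 of them positive. Those 7, named after their values were seen, were txlng, pole2, ddx54, rbbp7, ints10, pskh1 and lsm12. Among them rbbp7 and lsm12 were also called lower in E2F1 MO than in WT of stage 6. The rest of the 7 were not, and pole2 averaged 92.0 CPM in E2F1 MO and 87.6 CPM in WT of that stage. The median log2 change of E2F1 Rescue over E2F1 MO was 0.00 for the higher and -0.07 for the lower genes. Against WT of stage 6, E2F1 Rescue had 151 of the 268 called higher (56.3%, against 1.54% of all genes) and 118 of the 253 called lower (46.6%, against 1.48%). RNA of snapc4 was at 41.4 ± 2.92 CPM in E2F1 Rescue, 32.9 ± 3.74 CPM in E2F1 MO and 10.5 ± 0.38 CPM in WT, and tmem203 was at 2.37 ± 0.65, 3.43 ± 0.42 and 15.96 ± 2.64 CPM in the same order. The comparisons of E2F1 Rescue share the E2F1 MO or WT libraries of stage 6 with E2F1 MO against WT at that stage, and none of them uses a library of stage 5.

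At stages 7 and 8 the same sets were set against a much larger number of changes. E2F1 MO against WT called 25.3% of all genes higher and 22% lower at stage 7, and 26.2% and 23.7% at stage 8. Of the 268 higher genes 142 were called higher and 34 lower at stage 7, and 156 higher and 33 lower at stage 8. Of the 253 lower genes 71 were called higher and 97 lower at stage 7, and 86 higher and 77 lower at stage 8. The share of the lower genes called lower at stage 8 was 30.4%, and 34.0% were called higher. Most higher genes that were called there had the direction of stage 5, while the lower genes were split. E2F1 Rescue against E2F1 MO at stage 7 called 55 of the 268 higher genes lower and 80 higher (23.3% and 20.1% of all genes), and 25 of the 253 lower genes higher and 123 lower. At stage 8 it called 54 of the 268 lower and 71 higher (19.8% and 20.1% of all genes), and 39 of the 253 higher and 79 lower. Calls opposite to the direction of stage 5 were thus made at both stages, fewer than those in that direction.

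The double MO libraries gave a comparison without WT. Double MO against OTX1 MO, in which both groups were injected and the labels differ by the E2F1 morpholino, was added after values had been seen. With no doses given, the action on E2F1 cannot be told apart from other effects of that oligomer or of the total dose. At stage 7 the replicates of double MO differed more than those of OTX1 MO (chi-square per gene of 13.02 against 3.09). At stage 7 it called 42 of the 268 higher genes higher and 2 lower (15.7% higher, against 1.64% of all genes), and 70 of the 253 lower genes lower and 2 higher (27.7% lower, against 2.1%). At stage 8 the counts were 29 higher and 1 lower of the 268 (10.8%, against 1.26%), and 56 lower and 4 higher of the 253 (22.1%, against 1.42%). RNA of arpc3 was at 4.00 ± 0.12 CPM in double MO and 11.4 ± 0.39 CPM in OTX1 MO at stage 7 (log2 change -1.51, adjusted p = 1.3e-09), and cops6 at 11.3 ± 1.27 CPM against 29.0 ± 0.21 CPM (-1.36). RNA of usf2 was at 178 ± 3.73 CPM in double MO and 117 ± 2.46 CPM in OTX1 MO (0.61, adjusted p = 1.8e-08), while scaf11 was at 469 ± 55.2 CPM against 436 ± 6.32 CPM (0.11, adjusted p = 0.467) and brd2 gave 0.14 (adjusted p = 0.304). OTX1 MO against WT at stage 7 called 110 of the 268 higher and 71 lower (25.3% and 23.9% of all genes), and 125 of the 253 higher and 54 lower, so the higher genes leaned the same way and the lower genes the opposite way.

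**Figure D3:**
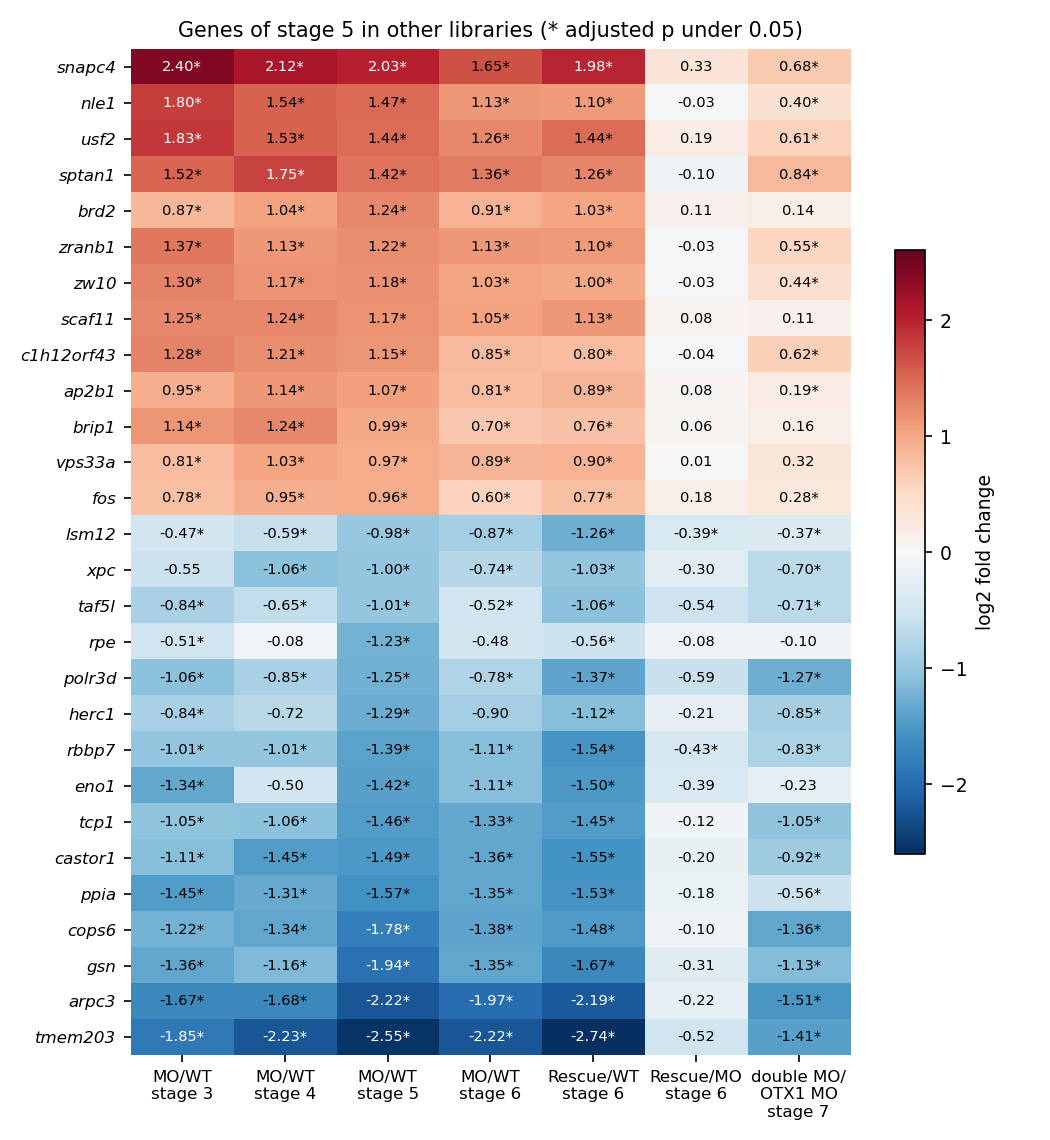
Log2 fold change, in colour and digits, of the 15 largest rises and 15 largest falls of stage 5 (rows, without tp63 and fbn3, whose signs at stage 4 are opposite to those at stage 5) in 7 comparisons (columns), with a star where the adjusted p was under 0.05. E2F1 MO and E2F1 Rescue against WT have the same sign in every row drawn, but tp63 and fbn3, which were left out, break this. The opposite sign of tp63 is not limited to stage 4. It gave -0.60 in E2F1 Rescue against WT and -0.09 in double MO against OTX1 MO. In E2F1 Rescue against E2F1 MO it gave -1.43, and none of these 3 values was called. E2F1 Rescue against E2F1 MO lies between -0.10 and 0.33 for the rises drawn and is called, below 0, for rbbp7 and lsm12. Double MO against OTX1 MO has the sign of stage 5 in every row drawn with smaller values in most.

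The called genes were more often ones that move during normal cleavage. In WT, 3509 genes were higher at stage 6 than at stage 4 (21.8%) and 3261 lower (20.3%), a comparison that uses no library of stage 5. Of the genes that were higher at WT stage 6, 3.62% were called higher and 4.13% lower in E2F1 MO at stage 5. Of those lower at WT stage 6, 1.69% were higher and 1.07% lower, and of the 9294 others 0.925% and 0.785%. Genes that rose in WT from stage 4 to stage 6 thus held calls in both directions. The called genes were also more abundant, with median WT levels of 59.3 CPM (higher) and 34.2 CPM (lower) against 9.85 CPM for all tested genes. The part of abundance in these shares was not tested.

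Libraries were also placed on the WT course from stage 4 to stage 6, using the mean log2 level (with 0.5 CPM added) of the 3509 rising genes minus that of the 3261 falling genes, scaled so that the WT means were 0 at stage 4 and 1 at stage 6. E2F1 MO lay at 0.519 and 0.577 at stage 5, and WT at 0.600 and 0.639. At stage 4 E2F1 MO lay at 0.217 and 0.137, above the WT mean of 0, and at stage 6 at 1.11 and 1.01. The WT libraries of stage 6 lay at 1.02 and 0.979. With the 729 rising and 257 falling genes of 2-fold change alone, E2F1 MO lay at 0.52 and 0.507 at stage 5, against 0.639 and 0.62 in WT, and at 0.97 and 0.895 at stage 6, against 1.03 and 0.969 in WT. At stage 4 these genes placed E2F1 MO at 0.3 and 0.235. The mean of E2F1 MO at stage 5 was thus behind WT under both choices of genes. At stage 6 it was ahead with all genes and behind with those of 2-fold change. The genes were picked in the WT libraries of stages 4 and 6, which can draw those libraries to the ends and others inward. E2F1 MO and WT of stages 4 and 6 are therefore not placed on equal terms. With 2 libraries a group an exact permutation test cannot go below p = 0.333, so no test is given. The part of the stage 5 gap in the calls was not tested.

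**Figure D4:**
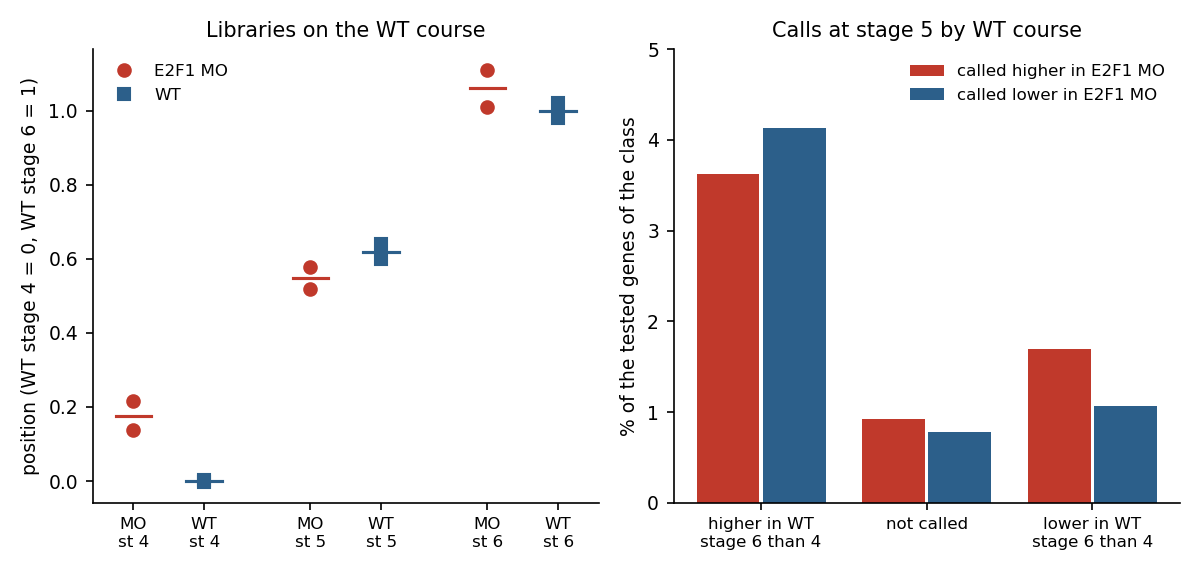
Left, position of each E2F1 MO and WT library of stages 4 to 6 on the WT course over the 3509 rising and 3261 falling genes, with stage 4 WT at 0 and stage 6 WT at 1 and a bar at the mean of each group. Right, percent of tested genes called higher or lower in E2F1 MO at stage 5 among genes higher, not called or lower in WT stage 6 against stage 4. E2F1 MO is below WT at stage 5 and, with this choice of genes but not with those of 2-fold change, above it at stage 6, and the share of calls is highest among the genes that rise in WT, in both directions.

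Gene length and abundance moved with the direction of change. The higher genes had a median length of 3338.5 bases and the lower genes 2397, against 2631 for all tested genes. Among the shortest 4017 of the tested genes 0.822% were higher and 1.69% lower, and among the longest 4016 2.14% were higher and 0.921% lower. Ribosomal protein, respiratory chain and proteasome genes, which had negative median changes, had median lengths of 618, 729.5 and 1438 bases, and the part of length in their change was not tested. Of 4 equal groups by abundance, the top one held 147 higher and 79 lower genes, the next 107 and 115, the third 14 and 58, and the lowest 0 and 1.

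Adjacent genes shared calls more often than others, given here with no test. In the gene order of the UCB_Xtro_10.0 assembly as annotated by RefSeq, a directly adjacent tested gene was called higher for 8.21% of the higher genes, against 3.26% of genes not called, and called lower for 8.00% of the lower genes, against 3.04%. With 5 genes on each side 21.3% of the higher genes had a neighbour called higher, a larger share than among genes not called. A neighbour called lower was found for 18.8% of the lower genes, against 14.3%. With 10 genes on each side these shares were 36.2% against 27.3% for higher and 27.6% against 26.5% for lower. Neighbours called in the opposite direction were fewer, as 9.7% of the higher genes had a lower one within 5 genes, against 14.3%. Counting both directions, 29.5% of the higher and 28.0% of the lower genes had a called neighbour within 5 genes, against 27.8% of genes not called. The sources used here do not name the strand setting of the counting, and whether overlapping genes shared reads was not tested.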

How the data were processed

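Per the labels' protocols, RNA of whole embryos went into libraries of a kit for stranded mRNA. The deposited values are raw counts per gene, and gene lengths stand beside them. The submitters' processing notes name STAR 2.7.0e and featureCounts 2.0.1 besides fastp and deepTools. The sources used here name no genome build, annotation or strand setting, and coordinates are left out. Of 16064 tested names 16056 match RefSeq symbols.

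All 44 libraries entered an edgeR 4.0.16 quasi-likelihood fit (R 4.3.3, TMM scaling, robust dispersion, 1 mean for each of 22 groups, 22 residual degrees of freedom), since 2 libraries a group give too little spread alone. The biological coefficient of variation was 6.11%. The filter filterByExpr (minimum count 10) kept 16064 of 28778 genes. Benjamini-Hochberg adjustment ran over the kept genes, with calls at 0.05. Stage contrasts came from the same fit. CPM values are TMM-scaled, and SE is the log2 change over the root of F. Replicates differed by more than sampling noise (chi-square per gene of 4.16 in E2F1 MO and 3.03 in WT). The method was tested on simulated counts.

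Members and gene lists were chosen with earlier results of these data known. Named were e2f1, otx1, the 15 largest rises and falls with a symbol, 5 CPM or more in the higher group and no overlap, up to 3 called members of each list, and, after their values were seen, the remaining called list members. Alternatives were RLE scaling, total counts, other filters, fits on 16 or 4 libraries, a replicate block, each library left out, DESeq2 1.42.0 and limma 3.58.1 voom. No promoter or protein sequences were analysed here.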

Additional observations from a re-analysis of the deposited data

How the results depend on the processing

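The 521 calls (268 higher, 253 lower) came to 998 (451 and 547) in a fit on the 16 WT and E2F1 MO libraries of stages 3 to 6 and to 1044 (536 and 508) in a fit on the 4 libraries of stage 5. Without 1 library they ran from 257 to 291, with 122 to 159 higher and 111 to 138 lower. The other scalings, filters and tools gave 457 to 729 calls. The 43 genes called at 2-fold or more were 78 without a filter on low counts and 69 in the 16-library fit. Total counts alone as scaling turned the share of higher calls to 43.1%, against 51.4%, with a shift of the median of detected genes of -0.02 (log2). Every alternative kept at least 81.8% of the calls in the same direction, except those without 1 library, which kept 46.8 to 50.9%.

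The effect at stage 5 against the mean of stages 4 and 6, with 0 calls, had 132 without the filter, 213 in the 16-library fit and 24 by DESeq2, and 0 to 3 without 1 library. The causes were not tested. No named gene changed its direction. Calls were lost for fbn3, exosc10 and kat7 with total counts, for fzr1, exosc4, exosc10 and sox3 without the filter, for fbn3, mybl2, velo1 and hspa8 in the 4-library fit, and for fbn3, e2f8, fau, rps15a, exosc2, exosc4, kat7 and ints10 with voom.

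Replicate number was left out of the model, and with only 2 numbers the values cannot decide whether it pairs the samples. The deviations of replicates correlated across 9074 genes at 0.204 at stage 5, 0.0614 at stage 3, 0.0076 at stage 4 and 0.101 at stage 6. A fit with the replicate number as a block gave 625 calls (323 higher, 302 lower), of which 508 are among the 521.

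Restricting the followed genes to the 161 called whichever library was left out, a choice made after seeing the data, raised the shares called at stage 6 to 87.6% of the higher and 79.7% of the lower genes. Depth limits changes under 1.5-fold in rare RNAs: the 4016 least abundant genes held 1 call. Floors cover counting error only, while the SE of a log2 change also holds the spread between replicate libraries of the fit.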
